A study of Homo sapiens with 9 samples.

Results

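The mRNA levels of 10 heat shock protein genes were followed in HepG2 cells, an established human liver tumour line, when glutamine (Gln) was withdrawn. The genes were chosen by symbol, and all 10 were found among the 22587 genes of the table. They were HSPA1A, HSPA1B, HSPA8 and HSPA9 of the HSP70 family, HSP90AA1 and HSP90AB1 of the HSP90 family, the J proteins DNAJB1 and DNAJA1, the nucleotide exchange factor HSPH1, and the mitochondrial chaperonin subunit HSPD1. The 9 RNA-seq libraries fell into 3 groups of 3, from cells with Gln added, from cells after 12 h of Gln deprivation and from cells after 24 h of it. No genetic change or drug is named for any group. The cultures were seeded 24 h before the medium was exchanged for a Gln-free one, and no collection time is given for the Gln-added cultures, so the time since the medium change and the loss of Gln cannot be told apart. GlutaMAX, a stable dipeptide source of Gln, is placed in the Gln-added cultures by the treatment label and in the deprivation medium by the treatment protocol. How far Gln was removed is therefore uncertain from the labels. In a separate assay, the paper reports a sharp early loss of intracellular glutamate in HepG2 cells deprived of Gln. Nothing in the labels says that the 3 libraries of a group came from separate cultures, so the p-values measure the spread between these libraries, which may be technical.

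Heat shock proteins are molecular chaperones that keep other proteins folded. In the cytosol, the constitutive HSPA8 and the stress-inducible HSPA1A and HSPA1B bind unfolded stretches of proteins in a cycle driven by ATP, J proteins such as DNAJB1 and DNAJA1 deliver those proteins and stimulate ATP hydrolysis, HSPH1 exchanges the nucleotide, and HSP90 takes over kinases, steroid receptors and other late folding intermediates. In mitochondria, HSPA9 pulls imported proteins through the inner membrane, and HSPD1 forms a folding chamber that HSPE1 closes. HSF1 is the transcription factor that activates many of these genes under heat and other proteotoxic stress, and it binds inverted repeats of the 5-base unit NGAAN.

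The promoters are shown first. The genes were chosen by symbol and not by motif, but heat shock genes are known as targets of HSF1. A motif of HSF1 in most of them is therefore a description and not an independent result. Windows from 250 bases before to 50 bases after each annotated transcription start were taken from RefSeq (GRCh38.p14), which gave 16 windows for the 10 members. A pair of facing units, written GAANNTTC or TTCNNGAA, was searched. Each form reads the same on both strands, and overlapping pairs were merged into 1 run. A pair was found in 10 of the 16 windows and in 9 of the 10 genes, with none in HSPH1, while 13.5% of all 35116 windows and 16.2% of all 27305 genes held at least 1 pair. A run of at least 3 alternating units was found in 5 of the 10 members (HSPA8, HSP90AA1, HSP90AB1, DNAJA1 and HSPD1) beside 0.608% of all genes, and in 5 of the 16 windows, beside 0.490% of all windows. A match describes these letters and does not show that a factor bound there. In the following windows, written 5′ to 3′ on the strand of the gene, capitals mark the runs. HSPA1A and HSPD1 are shown as examples of a short and of the longest run, HSPA8 and HSP90AA1 as abundant members that fell, and HSPA9 as the member that rose.
HSPA1A (chr6:31815293-31815592, plus strand): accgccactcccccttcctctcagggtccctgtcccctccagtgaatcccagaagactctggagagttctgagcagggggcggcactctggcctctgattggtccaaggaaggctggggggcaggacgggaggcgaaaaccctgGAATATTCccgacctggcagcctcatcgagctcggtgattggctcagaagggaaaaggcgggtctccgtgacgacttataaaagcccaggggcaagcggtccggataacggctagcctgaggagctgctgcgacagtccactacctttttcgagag
HSPA8 (chr11:123062087-123062386, minus strand): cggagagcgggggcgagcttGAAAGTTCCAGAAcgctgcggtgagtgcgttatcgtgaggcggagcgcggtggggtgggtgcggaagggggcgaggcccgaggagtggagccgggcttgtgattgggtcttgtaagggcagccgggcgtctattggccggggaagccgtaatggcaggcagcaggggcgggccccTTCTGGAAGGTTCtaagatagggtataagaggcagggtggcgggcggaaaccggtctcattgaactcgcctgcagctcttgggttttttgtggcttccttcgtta
HSP90AA1 (chr14:102086995-102087294, minus strand, the second of 2 windows): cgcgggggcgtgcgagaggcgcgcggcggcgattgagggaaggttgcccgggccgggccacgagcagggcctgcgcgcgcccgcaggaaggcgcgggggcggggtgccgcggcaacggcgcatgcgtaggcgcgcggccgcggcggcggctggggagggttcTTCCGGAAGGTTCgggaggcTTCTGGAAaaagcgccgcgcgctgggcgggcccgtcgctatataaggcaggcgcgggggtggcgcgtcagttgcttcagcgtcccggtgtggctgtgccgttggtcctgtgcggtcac
HSPD1 (chr2:197499791-197500090, minus strand, the second of 2 windows): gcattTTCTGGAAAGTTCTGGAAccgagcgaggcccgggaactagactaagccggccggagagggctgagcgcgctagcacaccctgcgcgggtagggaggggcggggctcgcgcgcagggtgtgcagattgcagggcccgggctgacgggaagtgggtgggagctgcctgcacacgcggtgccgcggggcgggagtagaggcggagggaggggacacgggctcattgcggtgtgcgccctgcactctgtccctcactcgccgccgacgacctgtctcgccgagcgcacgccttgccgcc
HSPA9 (chr5:138575352-138575651, minus strand): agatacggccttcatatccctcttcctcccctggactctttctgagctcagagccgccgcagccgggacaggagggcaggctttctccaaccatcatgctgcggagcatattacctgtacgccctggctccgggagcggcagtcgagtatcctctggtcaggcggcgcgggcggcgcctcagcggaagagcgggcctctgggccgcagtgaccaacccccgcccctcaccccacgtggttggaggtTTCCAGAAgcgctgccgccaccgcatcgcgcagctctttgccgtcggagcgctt
The run in HSPA1A was 8 bases long and began 106 bases before the start. The HSPA1B window held the same 8 bases, beginning 105 bases before its start. In HSPA8, 2 runs of 13 bases began 230 and 55 bases before the start, and in HSP90AA1 a run of 13 bases began 88 bases before it. The run of HSPD1 was 18 bases long and began 245 bases before the start of that window. The 8-base pair of HSPA9 lay across the start itself.

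The depth of the libraries ranged from 29621270 fragments on genes (12 h, replicate 1) to 36261546 (12 h, replicate 2), as recovered from the steps of the FPKM values. Levels are given as FPKM, in which fragments are divided by gene length and library depth. Comparisons between genes therefore rest on the gene lengths the authors used, and comparisons between libraries on the scaling. All 9 liver cell markers were in the table and above 0, with ALB, the plasma protein albumin, at 3230 to 3908 FPKM and HNF4A, a hepatocyte transcription factor, at 51.6 to 62.6 FPKM. With Gln added their summed level was 7550 to 7650 FPKM, against 6614 to 6684 FPKM at 12 h and 6388 to 6721 FPKM at 24 h. Of 10 markers of other cell types 8 were in the table, whose sums were 804 to 822 FPKM with Gln added, then 576 to 616 FPKM at 12 h and 780 to 828 FPKM at 24 h. These sums were carried by LYZ at 524 to 785 FPKM. The macrophage marker CD68 (21.2 to 36.3 FPKM) and the smooth muscle actin ACTA2 (21.5 to 36.5 FPKM) were lower by 0.29 and 0.57 on the log2 scale at 12 h and by 0.66 and 0.73 at 24 h, each past the limma test. The endothelial and fibroblast markers PECAM1, VWF, COL1A1, COL3A1 and DCN stayed below 0.35 FPKM in every library. The part of these marker changes in the results was not tested. All 9 libraries are labelled as HepG2, a single cell line, so these markers are not read as amounts of other cell types. In bulk RNA, a change in some of the cells and a smaller change in all of them cannot be told apart.

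Most members fell when Gln was withdrawn. Of the 10 members, 9 were lower at 12 h than with Gln added and 1, HSPA9, was higher (limma on log2(FPKM + 0.1), adjusted p under 0.05). At 24 h, 8 were lower, HSPA9 was higher and DNAJA1 did not pass the test. Such calls were common in these data. Of the 11880 genes tested, 60.2% were called at 12 h (29.1% higher and 31% lower) and 64.7% at 24 h (33% higher and 31.7% lower). The median log2 fold change of the members was -0.60 at 12 h and -0.49 at 24 h, beside -0.02 and 0.01 over all genes tested. The groups did not overlap for 10 of 10 members at 12 h and for 9 of 10 at 24 h, beside 67.2% and 69.9% of all genes tested. Both comparisons share the same 3 Gln-added libraries. All 10 members passed the filter on low values.

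**Figure D1:**
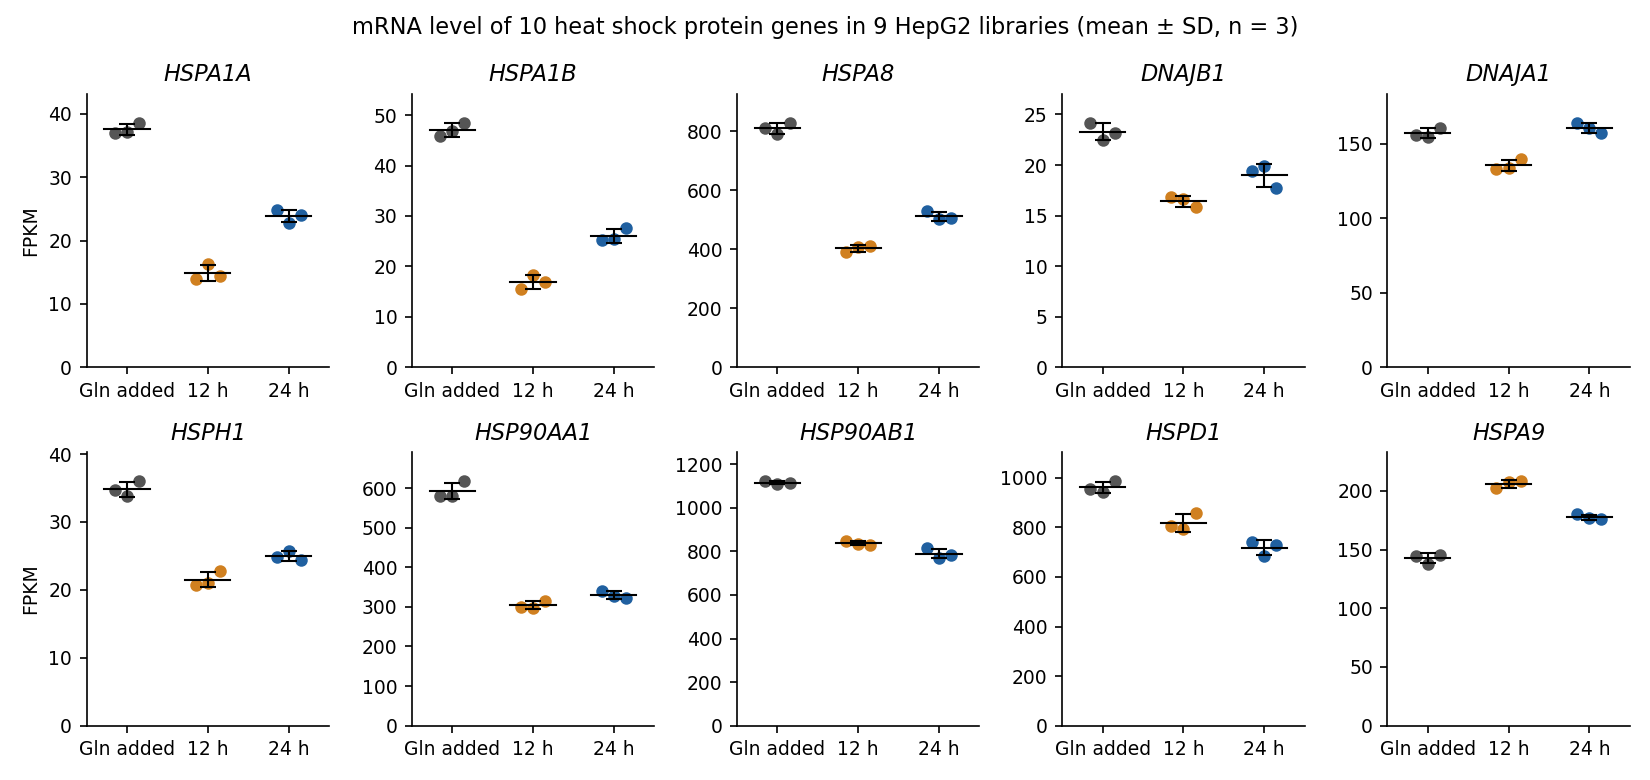
Level in FPKM (vertical axis, linear, starting at 0) of the 10 members in each library, with Gln added or after 12 h or 24 h without Gln; points are libraries, the long bar is the mean and the whiskers are 1 SD (n = 3). HSPA9 lies highest at 12 h, HSPD1 and HSP90AB1 lowest at 24 h, and the other members lowest at 12 h.

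Of the members, the stress-inducible HSP70 genes had the largest falls at 12 h. HSPA1A (chromosome 6, 31815543 to 31817946, plus strand, GRCh38, GENCODE v44) stood at 37.0, 37.1 and 38.6 FPKM with Gln added, at 13.9, 16.2 and 14.4 FPKM at 12 h, and at 24.8, 22.8 and 24.0 FPKM at 24 h. The 3 groups did not overlap, and the 24 h libraries lay between the others. Its mean at 12 h was 0.395 of that with Gln added, that is, -1.34 on the log2 scale (SE 0.057, limma adjusted p = 1.992e-08), and at 24 h the log2 fold change was -0.65 (adjusted p = 2.715e-06, limma). HSPA1B (chromosome 6, 31827738 to 31830254, plus strand) encodes nearly the same protein. It measured 45.8, 46.8 and 48.5 FPKM with Gln added, 15.5, 18.3 and 16.9 FPKM at 12 h, and 25.2, 25.4 and 27.6 FPKM at 24 h, again in 3 separate ranges. The log2 fold change against Gln added was -1.47 at 12 h (SE 0.060, limma adjusted p = 1.339e-08) and -0.85 at 24 h (limma adjusted p = 4.886e-07). By log2 fold change, HSPA1B had the 52nd and HSPA1A the 78th largest fall at 12 h among the 11880 genes. At 12 h, 1.94% of all genes tested had a called log2 fold change of -1 or below, and HSPA1A, HSPA1B and HSPA8 were the members among them. At 24 h no member was there, beside 2.83% of all genes. The 12 h log2 fold change of HSPA8 ranged from -1.02 to -0.97 over the alternatives, so its place past -1 depends on the processing.

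HSPA1A and HSPA1B are near-identical copies whose starts lie 12195 bases apart. Of their 150-base windows, 69.6% of those of HSPA1A and 66.1% of those of HSPA1B also occur in the other copy, so the split of reads between them is uncertain. How reads that match both copies were counted is not given, and reads left out would lower both levels, alone and summed. HSPA8 shares 0% of its windows with other genes. The levels of HSPA1A and HSPA1B beside those of other genes are therefore uncertain and may be too low. In addition, 36.6% of the exonic bases of HSPA1B are shared on the same strand with another annotated gene, ENSG00000285565. Summed and tested as 1 gene, HSPA1A plus HSPA1B had log2 fold changes of -1.41 at 12 h (limma adjusted p = 9.509e-09) and -0.76 at 24 h (limma adjusted p = 5.884e-07).

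HSPA8 (chromosome 11, 123057489 to 123063230, minus strand), the constitutive cytosolic HSP70, was far more abundant. It stood at 811, 791 and 829 FPKM with Gln added, at 389, 408 and 412 FPKM at 12 h, and at 530, 503 and 505 FPKM at 24 h. Its mean at 12 h was 0.497 of that with Gln added, and the 24 h libraries lay between the other groups without overlap. The log2 fold change was -1.01 at 12 h (SE 0.037, limma adjusted p = 6.112e-09) and -0.66 at 24 h (limma adjusted p = 8.522e-08). Other genes overlap 11.4% of its exonic bases on the opposite strand and 3.61% on the same strand, and whether the counting used strand is open. 

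The J proteins had smaller log2 fold changes than HSPA1A, HSPA1B and HSPA8, a difference that was not itself tested. DNAJB1 (chromosome 19, 14514769 to 14560391, minus strand), a stress-inducible J protein, measured 24.2, 22.5 and 23.2 FPKM with Gln added, 16.8, 16.7 and 15.8 FPKM at 12 h, and 19.4, 19.9 and 17.7 FPKM at 24 h. The groups did not overlap, and the log2 fold change was -0.50 at 12 h (SE 0.052, limma adjusted p = 1.343e-05) and -0.29 at 24 h (limma adjusted p = 0.0005077). DNAJA1 (chromosome 9, 33025273 to 33039907, plus strand), an abundant constitutive J protein, stood at 156, 154 and 161 FPKM with Gln added and at 133, 134 and 139 FPKM at 12 h. Its 24 h libraries were at 164, 161 and 157 FPKM and overlapped those with Gln added. The fall at 12 h was small but passed the test (log2 fold change -0.21, SE 0.034, limma adjusted p = 0.0002745). At 24 h the difference from Gln added was 0.03 on the log2 scale, with a 95% interval from -0.04 to 0.11 (limma adjusted p = 0.4115).

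HSPH1 (chromosome 13, 31134973 to 31162388, minus strand), which also prevents aggregation of unfolded proteins, was at 34.7, 33.8 and 36.0 FPKM with Gln added, at 20.8, 21.0 and 22.7 FPKM at 12 h, and at 24.9, 25.8 and 24.3 FPKM at 24 h. The 3 ranges were separate and the lowest was that of 12 h. Against Gln added this was a log2 change of -0.69 at 12 h (SE 0.045, limma adjusted p = 4.269e-07) and -0.48 at 24 h (limma adjusted p = 5.146e-06).

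Both HSP90 genes fell. HSP90AA1 (chromosome 14, 102080742 to 102139699, minus strand), the stress-inducible form, measured 581, 581 and 617 FPKM with Gln added, 300, 298 and 316 FPKM at 12 h, and 340, 328 and 321 FPKM at 24 h. The deprived libraries all lay far below those with Gln added, and the 12 h and 24 h ranges were close without overlapping. The log2 fold change was -0.96 at 12 h (SE 0.039, limma adjusted p = 1.459e-08) and -0.85 at 24 h (limma adjusted p = 2.191e-08). HSP90AB1 (chromosome 6, 44246166 to 44253888, plus strand), the constitutive form and the most abundant member, stood at 1122, 1111 and 1116 FPKM with Gln added, at 849, 832 and 831 FPKM at 12 h, and at 813, 770 and 786 FPKM at 24 h. Its log2 change against Gln added was -0.41 at 12 h (SE 0.032, limma adjusted p = 1.427e-06) and -0.50 at 24 h (limma adjusted p = 2.285e-07). HSP90AB1 and HSPD1 were the members with a lower mean at 24 h than at 12 h among those that had fallen.

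The mitochondrial members moved in opposite directions. HSPD1 (chromosome 2, 197486584 to 197516737, minus strand) measured 954, 944 and 986 FPKM with Gln added, 804, 792 and 860 FPKM at 12 h, and 741, 684 and 729 FPKM at 24 h. Each group lay below the one before it without overlap. The log2 fold change was -0.23 at 12 h (SE 0.043, limma adjusted p = 0.0008339) and -0.42 at 24 h (limma adjusted p = 9.233e-06). HSPA9 (chromosome 5, 138553756 to 138575675, minus strand) was at 145, 138 and 146 FPKM with Gln added, at 202, 207 and 208 FPKM at 12 h, and at 180, 177 and 176 FPKM at 24 h. The lowest of the deprived libraries exceeded the highest of the others. HSPA9 rose on the log2 scale by 0.53 at 12 h (SE 0.033, limma adjusted p = 2.686e-07) and 0.31 at 24 h (limma adjusted p = 9.934e-06).

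**Figure D2:**
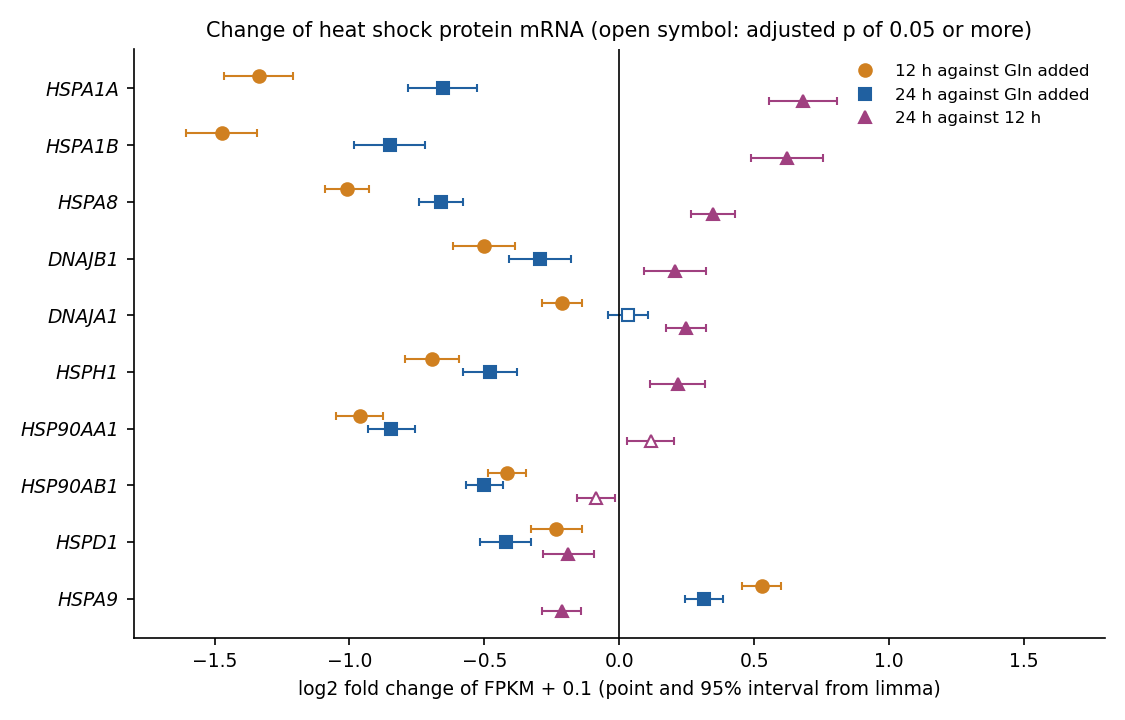
Log2 fold change of FPKM + 0.1 (horizontal axis) for each member in the 3 comparisons; points are limma estimates, bars their 95% intervals, and open symbols have an adjusted p of 0.05 or more. At 12 h all members but HSPA9 lie left of 0, and the triangles for 24 h against 12 h of HSPA1A, HSPA1B, HSPA8, DNAJB1, DNAJA1 and HSPH1 lie right of 0.

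Between 12 h and 24 h, HSPA1A, HSPA1B, HSPA8 and their cytosolic partners DNAJA1, DNAJB1 and HSPH1 rose. Of the 10 members, 6 were higher at 24 h than at 12 h, 2 were lower and 2 did not pass the test, and the median log2 fold change was 0.21, beside 0.02 over all genes tested. Here 20.1% of all genes were called (9.57% higher and 10.5% lower). HSPA1A rose from a mean of 14.9 ± 1.22 to 23.9 ± 0.996 FPKM (SD, n = 3), a log2 fold change of 0.68 (limma adjusted p = 3.067e-05) and the 162nd largest rise of the 11880 genes. HSPA1B rose by 0.62 (limma adjusted p = 6.812e-05) and HSPA8 by 0.35 (limma adjusted p = 0.0001309) on the log2 scale. DNAJA1 (0.25, limma adjusted p = 0.0006271), HSPH1 (0.22, limma adjusted p = 0.007661) and DNAJB1 (0.21, limma adjusted p = 0.01827) rose by less. HSPA9 dropped by 0.21 (limma adjusted p = 0.001312) and HSPD1 by 0.19 (limma adjusted p = 0.012), which left HSPA9 closer to its level with Gln added and HSPD1 farther from it. HSP90AA1 differed by 0.12 (limma adjusted p = 0.06132) and HSP90AB1 by -0.09 (limma adjusted p = 0.08473), neither past the threshold. The groups did not overlap for any of the 10 members, beside 34.4% of all genes tested. The calls of HSPD1 and DNAJB1, and the missing calls of both HSP90 genes, changed under some alternatives given in the closing part. With median-ratio scaling, 847 genes of all were called higher and 1692 lower in this comparison, in place of 1137 and 1249.

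Summed over the 10 members, the mRNA level reached 3859 to 4001 FPKM with Gln added, against 2744 to 2835 FPKM at 12 h and 2716 to 2864 FPKM at 24 h. Their share of the summed FPKM of a library went from 0.996% to 1.04% with Gln added to 0.720% to 0.760% at 12 h and 0.731% to 0.765% at 24 h. Thus the ranges of the deprived groups overlapped for the sum, although 6 single members were higher at 24 h. The sum is carried by HSP90AB1, HSPD1, HSPA8 and HSP90AA1.

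The order of the levels shifted with deprivation. With Gln added the order was HSP90AB1, HSPD1, HSPA8, HSP90AA1, DNAJA1, HSPA9, HSPA1B, HSPA1A, HSPH1 and DNAJB1, and no neighbours in it overlapped. The order rests on the gene lengths used, and the places of HSPA1A and HSPA1B also on how their shared reads were counted. In that group DNAJB1, the lowest by FPKM, had 3211 to 3524 fragments per library and HSPA1A 3114 to 3295. At 12 h HSPA9 stood above DNAJA1 and HSPH1 above HSPA1B, while HSP90AB1 overlapped with HSPD1, HSPA1B with DNAJB1, and DNAJB1 with HSPA1A. At 24 h HSPA9 was still above DNAJA1, HSPA1B overlapped with HSPH1 and HSPH1 with HSPA1A, and DNAJB1 was lowest. The coefficient of variation between the libraries of a group had a median over the members of 2.64% in the Gln-added group, against 3.29% at 12 h and 2.98% at 24 h, and reached 8.20% at most (HSPA1A at 12 h).

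Partner genes changed their proportions within a library, which does not depend on scaling between libraries. HSP90AA1 stood at 0.531 ± 0.0189 of HSP90AB1 with Gln added, at 0.364 ± 0.0144 at 12 h and at 0.418 ± 0.00860 at 24 h (SD, n = 3). The 3 groups did not overlap. The ratio of cytosolic HSPA8 to mitochondrial HSPA9 was 5.67 ± 0.0733 in the Gln-added group, then 1.96 ± 0.0283 at 12 h and 2.88 ± 0.0527 at 24 h. This was the widest shift of the 5 ratios, 2.90-fold at 12 h. The inducible pair HSPA1A plus HSPA1B stood at 0.104 ± 0.00210 of HSPA8 with Gln added and at 0.0787 ± 0.00500 at 12 h. At 24 h it was 0.0974 ± 0.00420 of HSPA8, a range that overlapped the one with Gln added. Because reads shared by both copies may have been left out, the size of this ratio is uncertain and may be too low in every group. DNAJB1 stood at 0.148 ± 0.00590 of DNAJA1 with Gln added, at 0.121 ± 0.00700 at 12 h and at 0.118 ± 0.00560 at 24 h, with the deprived groups overlapping each other. HSPD1 stood at 4.59 ± 0.197 times the level of HSPE1 with Gln added, 8.08 ± 0.696 times at 12 h and 7.40 ± 0.858 times at 24 h. In exact permutation tests (two-sided, 3 against 3), the 12 comparisons of these ratios that did not overlap each had p = 0.1, the smallest p this design allows, and 0.125 after Benjamini-Hochberg adjustment over the 15 tests. The exact permutation p was 0.2 for HSPA1A plus HSPA1B to HSPA8 at 24 h against Gln added, 0.4 for HSPD1 to HSPE1 and 0.5 for DNAJB1 to DNAJA1, both at 24 h against 12 h. No ratio can thus pass a threshold of 0.05 here.

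**Figure D3:**
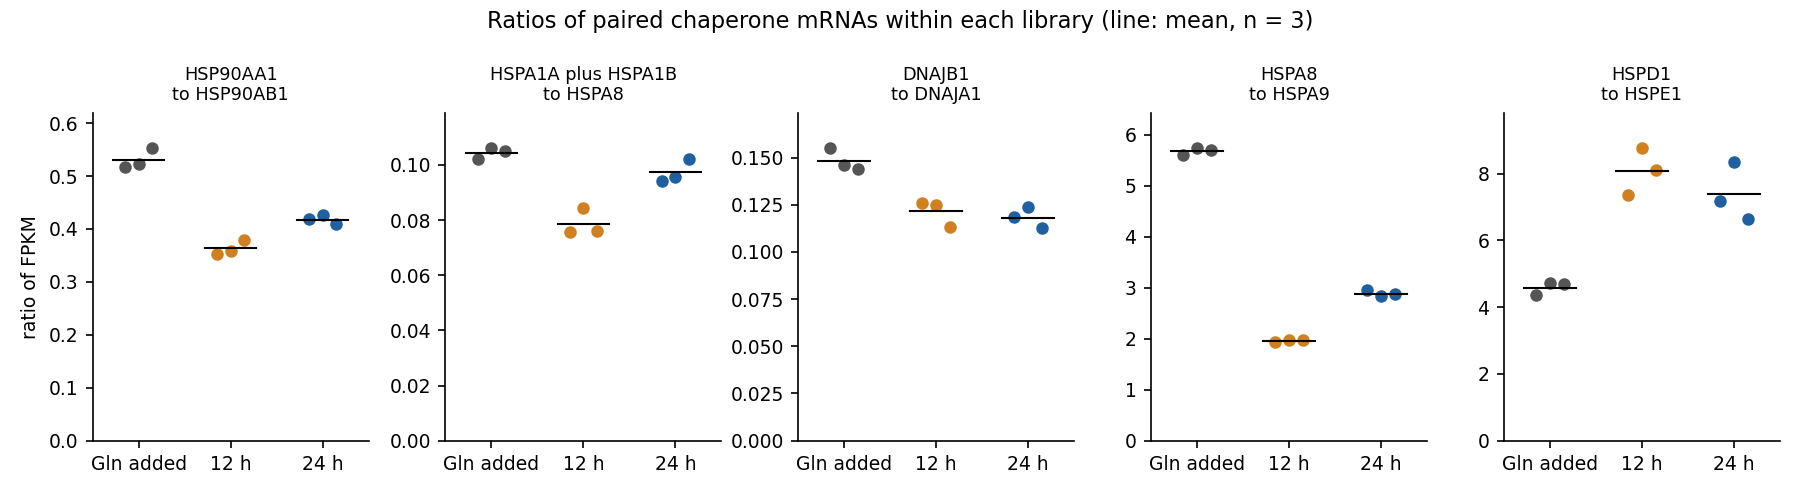
Ratio of FPKM of paired genes within each library (vertical axis, linear, starting at 0) in the 3 groups; points are libraries and lines are means (n = 3). HSPA8 to HSPA9 falls from 5.67 to 1.96 after 12 h of deprivation, and HSPD1 to HSPE1 is higher in all deprived libraries.

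Other genes of protein folding (chaperones, co-chaperones, mitochondrial proteases, and the HSF factors with their regulators) were sorted into 7 lists with 91 genes in all. Of these, 80 were tested; 21 were higher, 36 lower and 23 not called at 12 h, with a median log2 fold change of -0.10, and 22 were higher, 38 lower and 20 not called at 24 h, with a median of -0.12. The counts of higher genes against Gln added include HSF4, which passed the filter on low values only through the deprived groups. Between 12 h and 24 h, 3 were higher, 7 lower and 70 not called. The background shares are those given for the members.

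The HSP90 co-chaperones, which load, time and release HSP90 clients, had calls in 1 direction. Of the 17 tested, 0 were called higher by limma and 11 were lower in each of the comparisons with Gln added (medians -0.21 and -0.21). The number higher was also 0 at an unadjusted p under 0.05 and with voom, while the number lower at 24 h was 9 with FPKM rescaled to the same total. CACYBP fell by 0.66 at 12 h and 0.59 at 24 h, although 18.4% of its exonic bases are overlapped on the opposite strand. STIP1, which bridges HSP70 and HSP90, fell by 0.64 and 0.54 on the log2 scale (limma adjusted p = 8.128e-08 and 1.67e-07). Between 12 h and 24 h NUDC (0.14) and TOMM34 (0.14) were higher and PPP5C was lower (-0.15) in log2 fold change. The call of TOMM34 was lost in 7 and that of PPP5C in 10 of 19 alternatives, among them median-ratio scaling for TOMM34 (limma adjusted p = 0.118) and voom for PPP5C (0.05252).

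Of the other HSP70 relatives and their nucleotide exchange factors, 3 of 14 were higher and 7 lower at 12 h, and 3 were higher and 8 lower at 24 h. With FPKM rescaled to the same total, these counts were 4 and 6 at 12 h, and 3 and 6 at 24 h. HSPA4L, a relative of HSPH1, measured 7.42 ± 0.287 FPKM with Gln added (SD, n = 3), and its means at 12 h and 24 h were 0.445 and 0.488 of that. HSPA12A fell by 0.72 and 1.09 on the log2 scale. HSPA13 rose by 0.38 and 0.68, and BAG6, which handles misplaced membrane proteins, by 0.28 and 0.42. BAG3, a co-chaperone of HSP70 and a common target of HSF1, measured 24.3 ± 0.738 FPKM with Gln added, then 21.9 ± 0.686 FPKM at 12 h and 25.0 ± 1.44 FPKM at 24 h (SD, n = 3). It was lower at 12 h (-0.15, limma adjusted p = 0.02124), a call lost in 5 of 19 alternatives (FPKM rescaled to the same total, or without Gln added replicate 2 or 3 or 12 h replicate 1 or 3, with limma adjusted p of 0.05476 to 0.07058), and its value at 24 h against Gln added was 0.04 (limma adjusted p = 0.4828). HSPA6, an HSP70 gene that is strongly induced by heat, had 0 to 5 fragments in each library and was not tested.

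Of the 11 other J proteins tested, 4 were higher and 3 lower at 12 h, and 4 were higher and 4 lower at 24 h. DNAJB6, which suppresses aggregation, rose by 0.55 in log2 fold change at both times, DNAJA2 rose by 0.32 at 12 h and DNAJC5 by 0.38 at 24 h. DNAJC9, a histone chaperone, fell by 0.47 and 0.56, with 56.5% of its exonic bases overlapped on the opposite strand by FAM149B1. Among the small heat shock proteins, 2 of 6 were tested. HSPB1 went from 172 ± 3.59 FPKM to 94.4 ± 5.77 FPKM at 12 h and 74.5 ± 4.84 FPKM at 24 h (SD, n = 3), log2 fold changes of -0.86 and -1.21, and fell again by 0.34 between the deprived groups (limma adjusted p = 0.001755).

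The chaperonin TRiC, which folds actin and tubulin, and prefoldin, which delivers to it, had 2 of 14 genes higher and 8 lower at 12 h, and 2 higher and 9 lower at 24 h. The 8 lower at 12 h became 5 with either alternative scaling. At 24 h, 3 were higher and 7 lower with FPKM rescaled to the same total. CCT4 fell by 0.46 and 0.45 on the log2 scale, with 16.9% of its exonic bases overlapped on the opposite strand, and CCT6A by 0.30 and 0.30. CCT2, another subunit of the same ring, rose by 0.32 and 0.39, and PFDN1 by 0.14 and 0.22.

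The other mitochondrial chaperones and proteases included genes that rose and genes that fell, as HSPA9 and HSPD1 did. Of the 16 tested, 7 were higher and 5 lower at 12 h, and 8 were higher and 4 lower at 24 h. The 24 h counts were 9 and 2 after rescaling FPKM to 1 total, and 7 and 5 with median-ratio scaling. The protease LONP1, which degrades damaged proteins of the matrix, went from 45.5 ± 1.52 FPKM to 74.1 ± 1.99 FPKM at 12 h and 72.1 ± 2.77 FPKM at 24 h (SD, n = 3), log2 fold changes of 0.70 and 0.66. GRPEL2, a nucleotide exchange factor of HSPA9, rose by 0.85 and 0.78 on the log2 scale. HSPE1, the lid of the HSPD1 chamber, went from 210 ± 9.11 FPKM to 102 ± 10.0 FPKM at 12 h and 98.3 ± 14.4 FPKM at 24 h (SD, n = 3). Its log2 fold changes were -1.05 and -1.10 (limma adjusted p = 7.684e-06 and 3.592e-06). HSPE1 shares 10.5% of its exonic bases with the readthrough gene HSPE1-MOB4 and 7.41% with HSPD1 on the opposite strand. TRAP1, a mitochondrial HSP90, fell by 0.34 at 24 h, with 28.5% of its exonic bases overlapped on the opposite strand.

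Of the 6 HSF genes and HSF regulators, 5 were called higher and 1 lower both at 12 h and at 24 h. One of the 5, HSF4, averaged 0.383 FPKM with Gln added, 0.736 FPKM at 12 h and 0.910 FPKM at 24 h, so it passed the filter on low values only through the deprived groups, and its call supports nothing. HSF1 itself went from 29.8 ± 1.00 FPKM to 35.1 ± 1.98 FPKM at 12 h and 33.7 ± 1.10 FPKM at 24 h (SD, n = 3), log2 fold changes of 0.24 (limma adjusted p = 0.00161) and 0.18 (limma adjusted p = 0.007456). SIRT1, a deacetylase of HSF1, rose by 0.71 and 0.87 and IER5, which activates HSF1, by 0.75 and 0.87 on the log2 scale. HSBP1, an HSF1-binding protein, fell by 0.36 and 0.37, and 14.3% of its exonic bases are shared with another gene on the same strand. Between 12 h and 24 h, 0 of the 6 passed the limma test, 0 had an unadjusted p under 0.05 and 0 passed with voom; the difference of HSF1 was -0.06.

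The chaperones of the endoplasmic reticulum are given for comparison, since HSPA5 is the HSP70 of that compartment. HSPA5 measured 371 ± 5.41 FPKM with Gln added, then 154 ± 3.33 FPKM at 12 h and 198 ± 7.48 FPKM at 24 h (SD, n = 3), log2 fold changes of -1.27 and -0.91, and rose by 0.36 between 12 h and 24 h. Of the 15 genes of that list, 14 were lower and 0 higher at 12 h by limma (0 higher also at an unadjusted p under 0.05 and with voom), and 12 were lower and 2 higher at 24 h. Of the 2 higher, DNAJC10 (log2 fold change 0.12, limma adjusted p = 0.038) lost its call in 7 of 19 alternatives, among them median-ratio scaling. SDF2L1 fell by 1.56 and 1.45 and CRELD2 by 1.52 at 24 h on the log2 scale. DNAJB9, a J protein of this compartment, was higher by 0.84 at 24 h against Gln added and by 0.81 against 12 h.

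**Figure D4:**
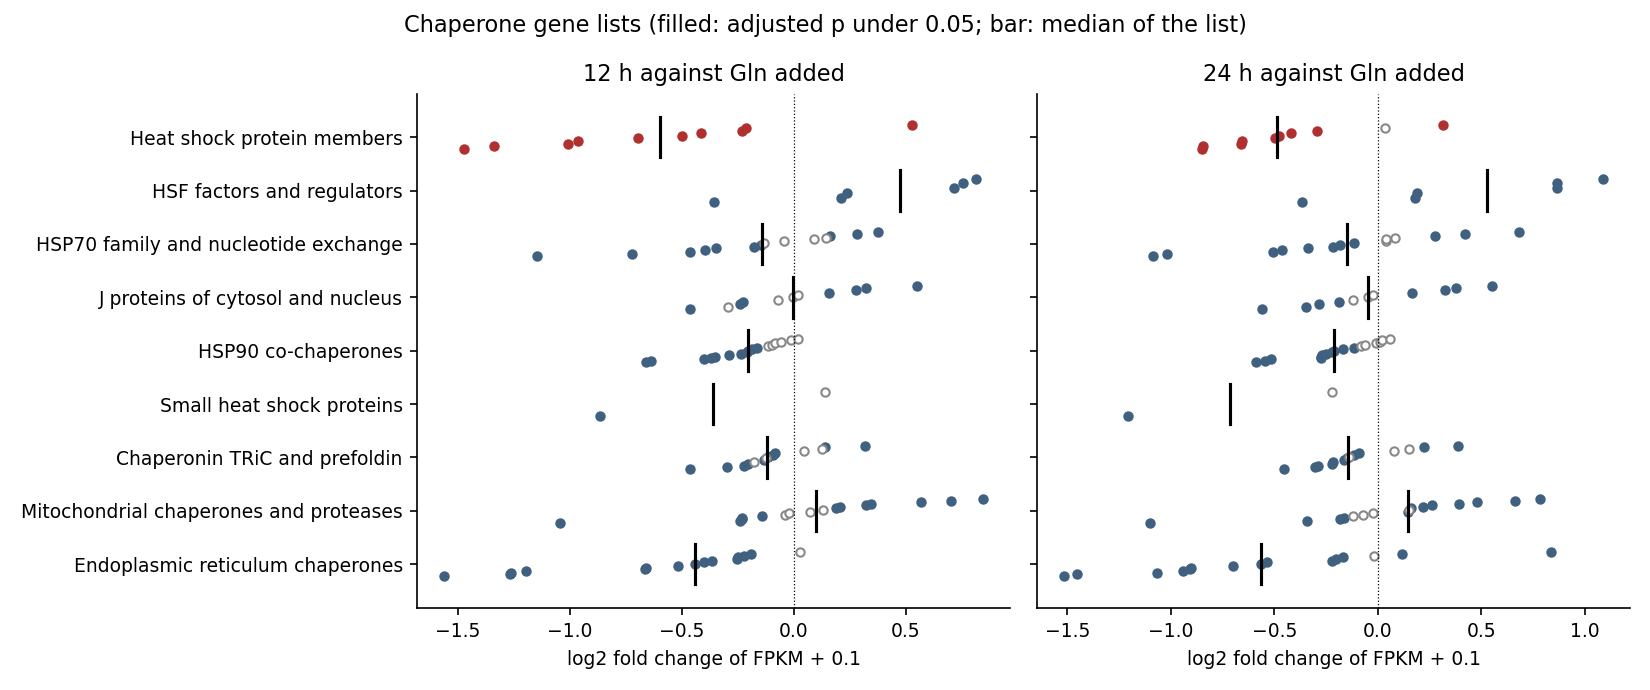
Log2 fold change of FPKM + 0.1 (horizontal axis) at 12 h and at 24 h against Gln added for the members (red) and the other lists of protein folding genes (blue); points are genes, filled where the adjusted p is under 0.05, and bars are list medians. The members have medians of -0.60 and -0.49 and the endoplasmic reticulum chaperones -0.44 and -0.56.

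The genes most like HSPA8, HSPA1B and HSPD1 in their pattern were found by the root mean square distance between log2(FPKM + 0.1) values centred on each gene's mean, over the 9 libraries and among 5102 other genes whose mean reached 10 FPKM. For HSPA8 they were MAGED1 (0.0645), VCL (0.0949), which encodes the adhesion protein vinculin, and FABP1 (0.105), a fatty acid binding protein of liver, with 2 of them nearer than the nearest member, HSP90AA1 (0.103). VCL is overlapped by another gene on the opposite strand in 11.1% of its exonic bases. For HSPA1B, HSPA1A was nearest (0.0946), ahead of HSPA5 (0.138), MANF (0.150), a secreted protein of the endoplasmic reticulum, and CDK2AP2 (0.192). Because HSPA1A and HSPA1B share most of their sequence, their measured patterns are not independent. MANF stood at 120 ± 5.73 FPKM (SD, n = 3) with Gln added, at 49.8 ± 0.516 FPKM after 12 h of deprivation and at 64.1 ± 5.94 FPKM after 24 h of deprivation. For HSPD1 they were SEPTIN11 (0.0328), PRPS1 (0.0338), an enzyme of nucleotide synthesis, and ATP5F1C (0.0342), a subunit of the mitochondrial ATP synthase, and the nearest member, HSP90AB1 (0.0844), came at place 312. These distances describe the libraries and were not tested.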

How the data were processed

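Total RNA of HepG2 cells was sequenced as paired-end libraries, 3 in each of the 3 groups, which were taken from the labels. The deposited values are FPKM of each gene in each library, as computed by the authors. By the paper's methods the authors aligned reads to GRCh38 with STAR and tested with DESeq2, and the submitters' processing notes name HTSeq and R 3.2.0. The annotation is not given in the sources used here. The labels and the methods name different library kits, so strandedness of the counting is open. Of the columns of values, 0 were left out.

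Differences were tested with limma 3.58.1 in R 4.3.3 (lmFit, eBayes with trend) on log2(FPKM + 0.1), for the 11880 genes averaging 0.5 FPKM or more, in 1 fit over 9 libraries, with Benjamini-Hochberg adjustment over all of them. No count model served as the main test, as FPKM are not counts, and the fold change of genes near the pseudocount is too small on this scale. Whole fragments came out of the FPKM steps for 100% of genes (tolerance 0.001, widened as the fragment number grows) and summed to 99.99% of the library totals. They were used for depth and for voom as an alternative, which called 3542 genes higher and 3770 lower at 12 h. The fitting was run on simulated data as a check of the code. Its changes had 1 fixed size, so it does not show how well small changes are found in these libraries. Ratios were compared by two-sided exact permutation tests (Python 3.11.15, scipy 1.17.1). Replicates differed beyond sampling noise in every pair (chi-square per degree of freedom 2.88 to 14.4). Named genes were the 10 members, HSF1, BAG3, HSPE1, HSPB1, HSPA6 and HSPA5, the 2 largest called rises and falls with a mean of at least 1 FPKM of each list and comparison, and the 3 nearest genes of HSPA8, HSPA1B and HSPD1. Overlaps of exons and shared 150-base windows were computed from GENCODE v44 on GRCh38. The members and lists were chosen with earlier results of these data known. The alternatives were other pseudocounts, filters, scalings, variance models and sets of libraries, the replicate number as a block, and each library left out. The other experiments of the study were not analysed here.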

Additional observations from a re-analysis of the deposited data

Results flagged for a closer look

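For 8 members the change against Gln added differed between 12 h and 24 h, by the test of the 24 h against the 12 h libraries (limma on log2(FPKM + 0.1), adjusted p under 0.05), which shows the later effect minus the earlier one. In log2 units, the difference was 0.68 for HSPA1A, 0.62 for HSPA1B, 0.35 for HSPA8, 0.25 for DNAJA1, 0.22 for HSPH1 and 0.21 for DNAJB1, and it was -0.21 for HSPA9 and -0.19 for HSPD1.

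By the same test, other chaperone genes also differed between the times. Among the genes of the cytosolic lists the log2 difference was 0.19 for BAG3, -0.36 for HSPA12A, -0.17 for HSPA14, -0.22 for DNAJC13, -0.20 for DNAJC2, 0.14 for NUDC, -0.15 for PPP5C, 0.14 for TOMM34 and -0.34 for HSPB1. For the mitochondrial protease AFG3L2 it was -0.16. Of DNAJC2, 21.1% of the exonic bases, and of AFG3L2, 11.7%, are overlapped by other genes on the opposite strand, and of HSPA14, 12.7% on the same strand. Of the 15 chaperones of the endoplasmic reticulum, 5 were higher and 5 lower at 24 h than at 12 h, among them, in log2 difference, DNAJB9 (0.81), HSPA5 (0.36), DNAJC10 (0.31), CRELD2 (-0.32) and CALR (-0.41). Over all genes tested, 20.1% were called in this comparison. Several of these calls did not hold in every alternative: of 19, the call was lost in 12 for HSPA12A, 10 for PPP5C, 7 each for DNAJC2 and TOMM34, 5 for AFG3L2 and 3 each for BAG3 and HSPA14. With 1 library left out, the limma adjusted p was 0.05442 to 0.1274 for HSPA12A (each library but 12 h replicate 3), 0.05208 to 0.1148 for PPP5C (Gln added replicate 1, 12 h replicates 2 and 3, and each 24 h replicate), 0.05348 to 0.07214 for TOMM34 (12 h replicates 2 and 3, 24 h replicates 1 and 2), and 0.06803 to 0.07795 for DNAJC2 (12 h replicates 1 and 3, 24 h replicates 1 and 2). It was 0.05247 to 0.085 for AFG3L2 (12 h replicates 1 and 2, 24 h replicates 2 and 3), 0.0501 to 0.072 for BAG3 (12 h replicates 1 and 3), and 0.05854 to 0.07241 for HSPA14 (12 h replicate 1, 24 h replicate 2).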

How the results depend on the processing

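Over 30 member fold changes and the alternatives, 587 of 597 values kept both direction and side of the threshold, 4 lost the call, 6 gained one and 0 reversed. All changes of call were at 24 h against 12 h. HSPD1 was not called with no filter on low values (limma adjusted p = 0.07452), which left 1 member lower in place of 2. DNAJB1 was not called with median-ratio scaling (0.05276), without 12 h replicate 3 (0.05341) or without 24 h replicate 2 (0.06095). HSP90AA1 became higher with FPKM rescaled to the same total (0.04621), with voom (0.03137) and without 12 h replicate 3 (0.03651), and HSP90AB1 lower with median-ratio scaling (0.02995), with voom (0.0436) and without 24 h replicate 1 (0.03345), each an adjusted p by limma. Of the genes of the 7 lists, 3 were higher at 24 h against 12 h, but 7 with FPKM rescaled, 1 with median-ratio scaling, 6 with voom and 6 with the replicate number as a block. The 7 lower ones became 3 with only the groups compared, and ranged from 2 (without 24 h replicate 2) to 6 with 1 library left out, with 3 without 12 h replicate 1. Log2 fold changes near 0 changed sign for BAG3 at 24 h against Gln added (-0.0064 without 24 h replicate 1 to 0.067 without 24 h replicate 2) and for HSPE1 at 24 h against 12 h (0.0663 without 24 h replicate 2 to -0.142 without 24 h replicate 3). The replicate numbers did not pair the libraries: deviations of same-numbered libraries correlated at -0.136 to 0.283. In 2 of 9 comparisons of a library with the libraries of a later group, the same number correlated best. The replicate block changed no call of a member. With FPKM rescaled, 3835 genes were higher and 3302 lower at 12 h. The sequence shared by HSPA1A and HSPA1B, and for HSPA1B an overlapping gene, leave their levels uncertain. HSPA1A and HSPA1B held at least 988 and 1159 fragments in each library.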
